A study of Mus musculus with 2 samples.

Results

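Muscle cells were examined in single-cell RNA-seq libraries of the mouse eye cup at e15.5. A cell was chosen by its own counts. It had to hold at least 200 genes and 2000 UMIs (unique molecular identifiers, which count each captured transcript once), with at most 15% of UMIs from mitochondrial genes. It also had to hold a UMI in 3 or more of Acta1, Ttn, Myog, Tnnt1 and Actc1, and at least 1 UMI of Des, Myod1 or Myog. Of 9722 control and 10708 mutant cells that passed the filters, 119 and 89 met this rule, 208 cells of 20430 in all, and they are called muscle cells below. Control embryos were Myrf fl/fl and mutant embryos Rx>cre Myrf fl/fl. Both carried loxP-flanked Myrf alleles and the mutant also carried Cre under Rx regulatory sequence, which acts in the early eye field. Each library came from 3 pooled eye cups whose cornea, lens and optic nerve had been taken off, and there was 1 library for each genotype. No test between genotypes was therefore possible. Intervals are exact 95% intervals for counting error only, binomial for shares, Poisson for levels and conditional binomial for ratios. For a count of 0, the limit given in place of an interval is 3 counts of the total.

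Skeletal muscle forms from progenitors that express Pax7 and Myf5, transcription factors that keep or start the muscle programme. Myod1 and then Myog, a bHLH factor of terminal differentiation, switch on the genes for cell fusion, the neuromuscular junction and the sarcomere, the contractile unit of actin and myosin filaments. The muscles that move the eye arise from head mesoderm around the eye cup, while trunk muscle progenitors use Pax3.

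The genes of the rule differed widely in how they marked these cells, which is a description of the choice and not a finding. Tnnt1, slow troponin T, was detected in nearly all, at 98.3% of control and 100% of mutant muscle cells. Actc1, cardiac alpha-actin, which embryonic skeletal muscle also expresses, had a UMI in 95.8% and 97.8%. Ttn, titin, had a UMI in 93.3% and 87.6%. Des, the intermediate filament protein desmin, had a UMI in 85.7% and 83.1%, and Myod1 in 72.3% and 71.9%. Myog was detected in only 57.1% of control cells and 71.9% of mutant ones, with a lowest, median and highest count of 0, 1 and 145 UMIs in control and 0, 2 and 111 in mutant cells. Acta1, skeletal alpha-actin, was the rarest, with a UMI in 21.8% and 15.7%. The muscle cells held 98.8% of all Myog UMIs of the kept control cells and 97.5% of those of the mutant, but only 60.8% and 50.7% of the Tnnt1 UMIs and 35.3% and 70.8% of the Acta1 UMIs.

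Values at the edge of the rule are a description, since the markers chose the cells. The 54 control and 32 mutant cells with exactly 3 of the 5 markers had a median of 20.5 and 11.5 marker UMIs. The 42 and 52 cells with 2 markers and a UMI of Des, Myod1 or Myog had a median of 5 and 5.5. Another 11 control and 18 mutant cells had 3 or more markers but none of the other genes needed, with a median of 5 and 6 marker UMIs. The 65 and 57 muscle cells with 4 or 5 markers had a median of 169 and 77. Of genes outside the rule, Mymx was detected in 11.1% and 21.9% of the cells with exactly 3 markers and in 4.76% and 0% of those with 2 markers and a UMI of Des, Myod1 or Myog, and Pax7 in 57.4% and 68.8% against 59.5% and 57.7%. In the cells with 3 or more markers but none of the other genes needed, Mymx was detected in 9.09% and 5.56% and Pax7 in 27.3% and 27.8%.

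The muscle cells were deeply sequenced. Their median was 22222 UMIs and 4262 genes in control and 22234 UMIs and 4041 genes in mutant, against a median of 11726.5 and 10521 UMIs over all kept cells. The rule favours deep barcodes, since with each kept cell thinned to 2000 UMIs only 44 control and 32 mutant cells met it. Median mitochondrial shares were 3.98% and 3.65%. Of the barcodes, 69 were present in both libraries, and 1 of them was a mutant muscle cell. A further 7 control and 11 mutant barcodes met the gene rule but failed a filter. As a measure of free RNA, 697 control and 947 mutant cells with retinal ganglion cell markers (UMIs in 3 or more of Stmn2, Sncg, Gap43 and Pou4f2), with a median of 15224 and 15617 UMIs, had a Myog UMI in 0.430% and 0.317%, a Mymx UMI in 0.717% and 0.528% and a Pax7 UMI in 0.143% and 0.211%. Some sarcomere genes were more widespread there, with a Ttn UMI in 3.59% and 4.86%, a Tnnt1 UMI in 5.16% and 6.76% and an Acta1 UMI in 4.16% and 6.44%. Mylpf, a myosin light chain, had a UMI in 15.8% and 15.4% of these cells. Other sarcomere genes were rarer, with an Actc1 UMI in 0.574% and 1.48%, a Neb UMI in 0.143% and 0.317% and a Tnnt2 UMI in 0.717% and 1.16%. With each muscle cell thinned to 10000 UMIs, which left out 4 control and 12 mutant cells, Myog was detected in 50.4% and 61.0%, Mymx in 40.0% and 37.7%, and Pax7 in 24.3% and 35.1%.

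Myrf, the targeted gene, gave 3 UMIs in muscle cells of either library, so its loss could not be checked in them. In all other kept cells it gave 429 and 151 UMIs, or 3.48 and 1.18 CPM (UMIs of a gene per 1000000 UMIs, summed over the cells). The 3′ tags count the end of the transcript, and where the loxP sites lie is not given in the sources used here.

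The head muscle label was compared with genes of the muscle progenitor list. Pax3, which trunk muscle progenitors use, had no UMI in 119 control or 89 mutant muscle cells, so that shares of cells with a Pax3 UMI up to 2.52% and 3.37% are possible, and the share of cells that express it is not limited by this. Lbx1, a gene of migrating limb muscle progenitors, had 1 UMI in control and none in mutant muscle cells. No label names the dissected tissue beyond the eye cup, and which muscle the cells came from was not tested.

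The word differentiating was met by only some of the cells. Myog was either absent, present at a few UMIs or present at many UMIs per cell, and the cells were therefore described in 3 ranges of Myog per 10000 UMIs, set after its values were seen. The 6 mutant barcodes with extreme sarcomere levels, described further on, were set aside first. No Myog was found in 51 control and 24 mutant cells, or 42.9% (33.8 to 52.3) and 27.0% (18.1 to 37.4). Myog was above 0 and under 5 in 22 and 32 cells, or 18.5% (12.0 to 26.6) and 36.0% (26.1 to 46.8). It was 5 or more in 46 and 27 cells, or 38.7% (29.9 to 48.0) and 30.3% (21.0 to 41.0). These are ranges and not types, and 11 control and 18 mutant cells lay within 2-fold of the limit of 5. Depth was alike at both ends, with a median of 24380 UMIs without Myog and 24657.5 at 5 or more in control, and 22596.5 and 25406 in mutant.

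**Figure D1:**
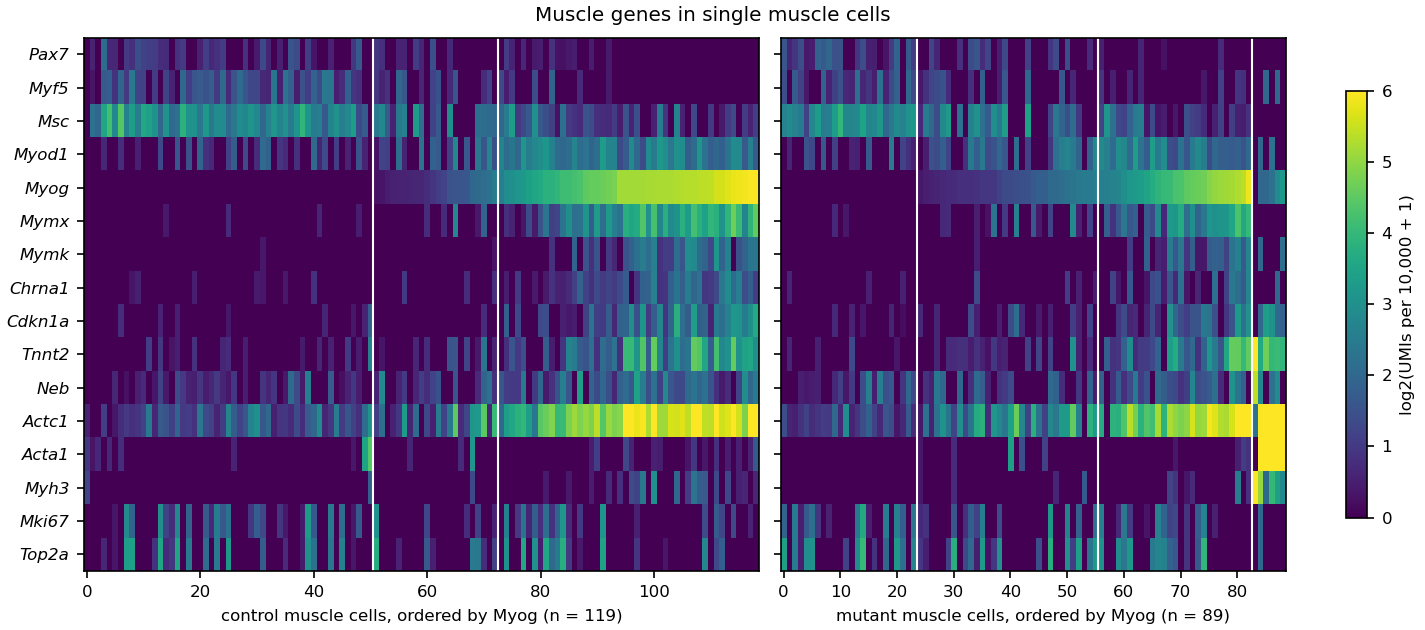
Heat map of single muscle cells (columns, ordered by Myog, control left with n = 119 and mutant right with n = 89) for 16 genes (rows), coloured by log2(UMIs per 10000 + 1) and capped at 6. White lines separate cells without Myog, with Myog under 5 and with Myog of 5 or more per 10000, and the last 6 mutant columns are the sarcomere-rich barcodes. Pax7, Myf5 and Msc lie mostly on the left of each panel, Mymx, Mymk, Chrna1 and Tnnt2 on the right, and Mki67 in patches throughout.

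Between cells with Myog of 5 or more and cells without it, 77 of 3357 genes with 50 or more UMIs in each library (2.29%) were at least 2-fold higher in both libraries and 94 (2.8%) were at least 2-fold lower, with a median log2 ratio over all of them of -0.04 in control and -0.02 in mutant. The counts for gene lists in the following paragraphs stand beside these shares.

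Several progenitor genes were at their highest in the cells without Myog. Pax7 was detected in 31 of 51 control and 20 of 24 mutant cells without Myog, in 8 of 22 and 14 of 32 with Myog under 5, and in 12 of 46 and 4 of 27 with 5 or more. Its summed count over the 3 ranges was 82, 17 and 16 UMIs in control and 68, 41 and 5 in mutant. Myf5 had a UMI in 44 of 51 and 20 of 24 cells without Myog and in 7 of 46 and 8 of 27 of those with 5 or more. Msc (musculin), a repressor of muscle differentiation in head muscle progenitors, went from 624 and 616 CPM without Myog to 155 and 111 at 5 or more. The 2 measured genes of the Notch list went opposite ways. Hes1, a Notch target, went from 110 and 145 CPM without Myog to 25.5 and 32.6 at 5 or more, and Hes6, which counters Notch signalling, from 104 and 95.1 to 277 and 243.

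The fusion genes Mymx and Mymk had the opposite order. Of 9 measured genes of the fusion and adhesion list, these included, 3 were at least 2-fold higher at Myog of 5 or more in both libraries and none was lower, with median log2 ratios of 0.17 in control and 0.63 in mutant. Mymx, the fusion peptide myomixer, was detected in 4 of 51 control and 2 of 24 mutant cells without Myog, in 5 of 22 and 13 of 32 with Myog under 5, and in 44 of 46 and 25 of 27 with 5 or more. Its summed level in the last range was 736 CPM in control and 539 in mutant. Mymk, myomaker, its partner in the fusion of myoblast membranes, was found almost only in the last range, in 30 of 46 and 19 of 27 cells, against 1 of 51 control and 0 of 24 mutant cells without Myog. With the 24 mutant cells a count of 0 leaves room for a UMI in 12.5%. Cdh15 (M-cadherin), an adhesion protein of both stages, had a UMI in 86.3% and 87.5% of cells without Myog and in 97.8% and 92.6% at 5 or more.

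Few genes of the neuromuscular junction and of calcium release held enough UMIs to be compared between these ranges. Of 11 listed junction genes 1 was measured, Chrna1, and it was at least 2-fold higher at Myog of 5 or more in both libraries. Of 20 listed genes of excitation-contraction coupling 4 were measured and 2 were higher, with median log2 ratios of 1.06 in control and 1.13 in mutant. Chrna1, the alpha subunit of the muscle acetylcholine receptor, had a UMI in 7 of 51 and 3 of 24 cells without Myog and in 40 of 46 and 18 of 27 with 5 or more, with 170 and 118 CPM in the latter. Chrng, the fetal gamma subunit, went from 6 of 51 and 4 of 24 cells to 19 of 46 and 15 of 27. Dok7, an activator of the junction's kinase MuSK, went from 5.96 and 17.1 to 79.3 and 44.0 CPM. Rapsn, which clusters the receptors, was 46.2 and 20.3 without Myog and 50.2 and 22.7 at 5 or more. Jsrp1, a protein of the muscle triad, went from 15.7 and 9.35 to 96.9 and 75.2.

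The promoter windows of Myog and of both receptor subunits are shown because they stand for the factor that orders the cells and for genes that go with it. They come from RefSeq for GRCm38.p6, span 300 bases around the start that RefSeq gives, and are read 5′ to 3′ on the gene's own strand. In GENCODE vM21 the windows of Myog and Chrna1 span the start of the gene, while Chrng starts at 87204657, so that its window lies inside the gene as annotated there. Capitals mark the letters CANNTG, the core that bHLH factors such as Myog and Myod1 are known to bind, on both strands since it reads alike on each. Myog is at chr1:134289754-134290053 (plus strand), Chrna1 at chr2:73580289-73580588 (minus strand) and Chrng at chr1:87205561-87205860 (plus strand). Mymk, Mymx, Myod1 and Msc had no entry.
Myog: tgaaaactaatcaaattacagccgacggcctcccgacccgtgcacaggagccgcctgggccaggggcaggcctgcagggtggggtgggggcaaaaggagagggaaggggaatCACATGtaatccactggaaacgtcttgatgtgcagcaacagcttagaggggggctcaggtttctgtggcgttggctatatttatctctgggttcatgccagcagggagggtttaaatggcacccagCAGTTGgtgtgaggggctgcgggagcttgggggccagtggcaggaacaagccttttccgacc
Chrna1: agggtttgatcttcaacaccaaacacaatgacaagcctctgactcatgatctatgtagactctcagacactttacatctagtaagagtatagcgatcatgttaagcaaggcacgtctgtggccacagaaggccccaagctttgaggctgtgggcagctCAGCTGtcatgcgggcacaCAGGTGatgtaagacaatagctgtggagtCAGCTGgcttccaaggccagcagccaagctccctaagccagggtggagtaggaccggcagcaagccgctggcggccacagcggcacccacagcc
Chrng: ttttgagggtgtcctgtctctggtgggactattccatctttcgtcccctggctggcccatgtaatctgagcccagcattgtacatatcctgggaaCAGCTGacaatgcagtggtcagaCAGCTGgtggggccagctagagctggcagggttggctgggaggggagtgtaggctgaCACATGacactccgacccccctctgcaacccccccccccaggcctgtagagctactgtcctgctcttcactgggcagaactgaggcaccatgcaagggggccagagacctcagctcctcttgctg

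The windows held 2 matches to CANNTG in Myog, 3 in Chrna1 and 3 in Chrng. The form CAGCTG, which is contained in CANNTG and also reads alike on both strands, was matched 0, 2 and 2 times. Of all 32851 promoter windows of this length, 16.3% held CAGCTG and 72.3% held CANNTG. Among the 77 genes at least 2-fold higher at Myog of 5 or more than without Myog in both libraries, 57 had windows, and 32 of their 100 windows held CAGCTG (32%). The share was 17.1% of 82 windows for the genes at least 2-fold lower and 11.8% of 3369 windows for all genes compared. Matches of letters are descriptions and do not show binding.

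Since Myog set the ranges, its own difference is no finding. All 5 measured genes of the differentiation regulator list were higher in both libraries, with a median log2 ratio of 3.19 in control and 2.74 in mutant. That list holds Myog itself and also Myod1. Of 9 measured thin filament genes 6 were higher and none was lower, with medians of 1.70 and 1.40. These 6 include Actc1 and Tnnt1, genes of the rule through which cells without Myog had to pass, and the others were Tnnt2, Tnni1, Tpm2 and Neb. Tnnt2, cardiac troponin T, which immature skeletal muscle makes, went from 16.4 to 534 CPM in control and from 9.35 to 548 in mutant. Tpm2, beta-tropomyosin, went from 345 to 1125 and from 312 to 961, and Neb, nebulin, from 58.9 to 268 and from 101 to 216. The embryonic myosin Myh3 was still scarce at Myog of 5 or more, where 19 of 46 and 6 of 27 cells held a UMI of it.

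Cell cycle inhibitors went with Myog, while genes of cell division were measured in every range. Of 7 measured genes of the cell cycle exit list, 4 were at least 2-fold higher at Myog of 5 or more in both libraries, with a median log2 ratio of 2.09 in each. Cdkn1a (p21) had a UMI in 8 of 51 and 5 of 24 cells without Myog and in 38 of 46 and 21 of 27 at 5 or more. Rb1, the retinoblastoma protein, went from 5.22 and 10.9 to 87.2 and 89.4 CPM. Cdkn1c (p57) was abundant throughout, at 7041 and 7442 CPM without Myog and 13602 and 10787 at 5 or more. None of 15 measured cell division genes differed by 2-fold in both libraries, with medians of -0.36 and -0.09. Mki67, a proliferation marker, had a UMI in 25 of 51 and 14 of 24 cells without Myog and in 19 of 46 and 13 of 27 at 5 or more, and Mki67 and Myog were found together in 24 control and 25 mutant cells. Among the cells with retinal ganglion cell markers, used above as a measure of free RNA, Mki67 was detected in 9.61% and 17.1% and Top2a in 16.2% and 24.3%. How much of this was free RNA and how much came from these cells was not tested.

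**Figure D2:**
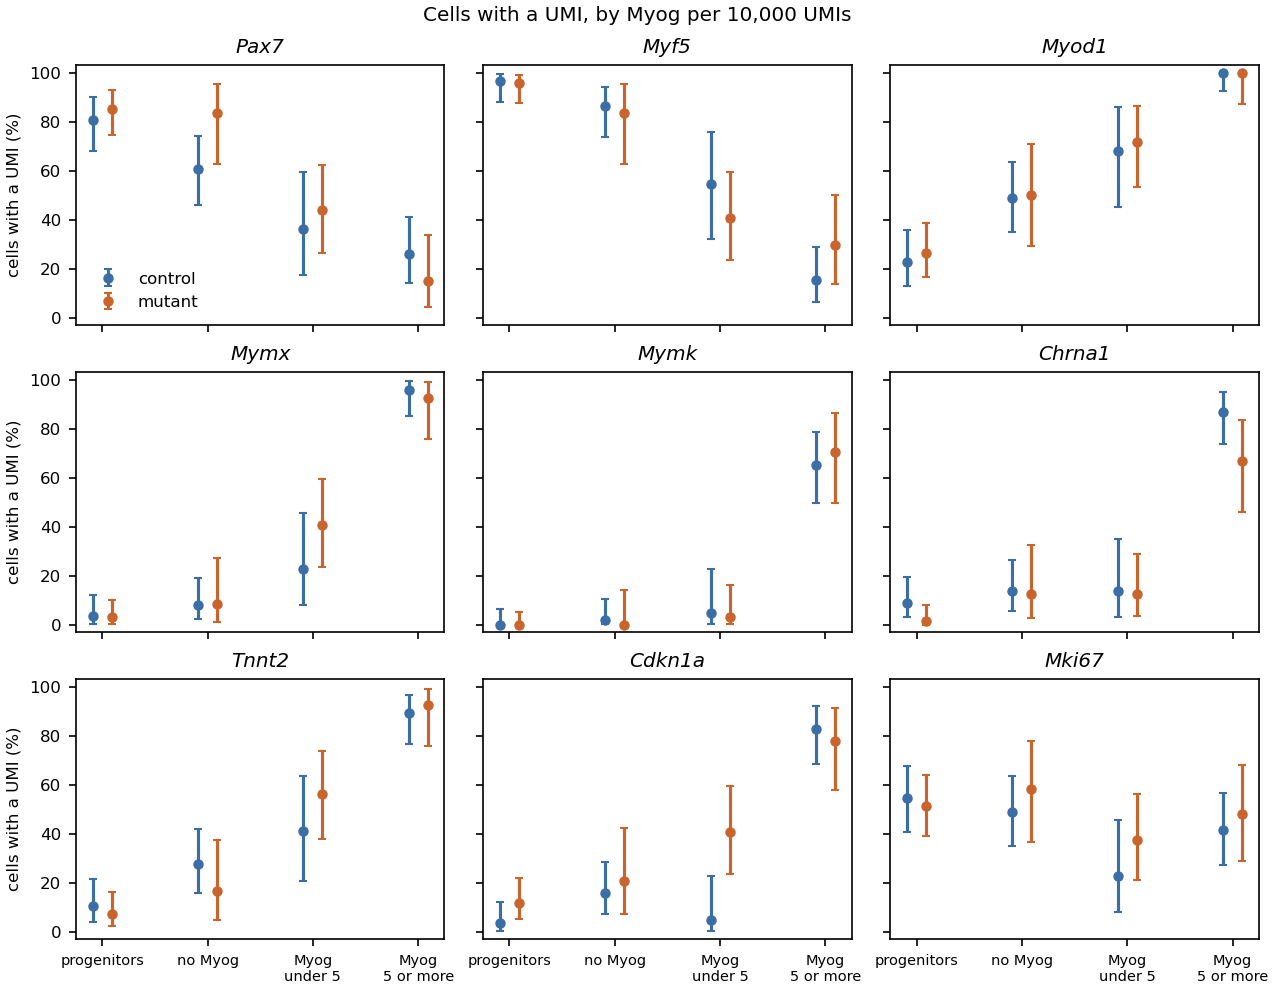
Share of cells with at least 1 UMI (y axis, %) for 9 genes in muscle progenitors and in muscle cells of 3 ranges of Myog per 10000 UMIs (x axis), for control (blue) and mutant (orange). Points are shares and bars are exact binomial 95% intervals for counting error. Mymx was detected in 95.7% (control) and 92.6% (mutant) of cells at Myog of 5 or more, and in 3.51% and 2.94% of progenitors.

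The genes outside all lists with the widest difference between these ranges in both libraries were named by the rule fixed for the progenitors and applied to the ranges after their values were seen. S100a16, a calcium-binding protein, went from 11.9 and 20.3 CPM without Myog to 337 and 187 at 5 or more, and Spg21 (maspardin) from 104 and 101 to 798 and 670. Casz1, a zinc finger factor, went from 7.46 and 10.9 to 90.7 and 68.1, and Zbtb18, a repressor, from 13.4 and 17.1 to 130 and 112. Cd82, a tetraspanin of the cell surface, went from 36.5 and 23.4 to 190 and 166. In the other direction, Vcan (versican) went from 197 and 304 to 34.3 and 45.4, Mmp2, a matrix protease, from 66.4 and 79.5 to 11.4 and 5.68, and Fzd4, a Wnt receptor, from 80.5 and 85.7 to 9.69 and 12.8. Agtr2, an angiotensin receptor, went from 59.6 and 122 to 3.52 and 15.6. The mesenchyme marker list was lower as well, with 3 of 5 measured genes at least 2-fold lower in both libraries and medians of -4.15 and -1.28. Its part in the lower genes was not tested.

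In single cells outside the 6 set aside, Myog and Mymx were found together in 49 of 119 control and 38 of 83 mutant cells, and Mymx without Myog in 4 and 2. Mymk was found with Mymx in 30 and 20 cells and without it in 2 and 0. The stages were not exclusive, since Pax7 and Myog were found together in 20 control and 18 mutant cells.

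Muscle progenitors were taken as kept cells outside the rule with UMIs in 2 or more of Pax7, Myf5, Myod1 and Des, 1 of them Pax7 or Myf5, and there were 57 in control and 68 in mutant. The genes of both rules set part of the difference, so the counts are descriptions. Of 6275 genes with 50 or more UMIs in each library, 85 (1.35%) were at least 2-fold higher in muscle cells in both libraries and 34 (0.542%) were at least 2-fold lower. Of 11 measured thin filament genes, genes of the rule included, 8 were higher and none was lower. Among markers of other cell types, all 4 measured erythroid genes and 2 of 12 neural retina genes were at least 2-fold higher in the summed muscle cells of both libraries. The erythroid UMIs were unevenly spread and made up 93.7% of UMIs in 1 control and 34.4% in 1 mutant cell but 0.0204% and 0.0148% in the median muscle cell. The part of these markers in the higher genes was not tested. Of 7 measured progenitor regulators 2 were lower and none was higher. Tnnt2 was at 220 CPM in control muscle cells and 6.98 in progenitors, and at 245 and 4.43 in the mutant. Chrna1 was at 70.9 and 4.36 in control and at 49.7 and 0.738 in the mutant. Cdkn1a was at 105 and 2.62 in control and 85.0 and 7.38 in mutant. Hes6 was at 173 and 78.5 in control and 192 and 70.1 in mutant, while Notch3, a receptor, was lower in muscle cells at 28.3 against 59.3 and 25.3 against 78.9. None of 16 cell division genes differed by 2-fold in both libraries.

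Of the genes outside all lists, Hspb2, a small heat shock protein of muscle, had 62 UMIs in control muscle cells and none in control progenitors, a log2 ratio of at least 3.01 against a floor of 3 UMIs over the progenitors, without the counting error of the 62 UMIs. The exact lower limit of the ratio was 6.37. In the mutant it was at 32.3 and 4.43 CPM. Fndc5, the precursor of irisin, was at 115 and 29.7 in control and 115 and 19.9 in mutant. Gatm, an enzyme of creatine synthesis, was at 47.4 and 9.60 and at 50.7 and 8.11. The lower genes included Penk, proenkephalin, at 43.6 and 152 in control and 29.8 and 145 in mutant.

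Acta2, smooth muscle alpha-actin, was abundant in the muscle cells. It was detected in 86.6% and 78.7% of the control and mutant muscle cells, at 704 and 430 CPM, against 42.5 and 51.9 in all other kept cells. Of the other genes of the pericyte and smooth muscle list, Tagln (transgelin) had 192 and 83 UMIs and was detected in 38.7% and 22.5% of the muscle cells, at 65.4 and 41.2 CPM against 86.2 and 64.0 in all other kept cells. Myh11, the smooth muscle myosin, had 2 and 0 UMIs, Cnn1 (calponin) 1 and 0, and the pericyte gene Rgs5 5 and 2. At Myog of 5 or more, Acta2 was at 1270 CPM in control and 719 in mutant, and in progenitors at 72.4 and 135.

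Markers of other cell types were low in most muscle cells but not in all. The mesenchyme list (10 genes, none at 0) made up 0.0450% of UMIs in the median control and 0.0598% in the median mutant muscle cell, and 0.5% or more in 9 and 7 of them, with a highest value of 2.10% and 4.17%. The neural retina list (16 genes, none at 0) had medians of 0.0250% and 0.0268% and reached 0.5% in 2 control and 11 mutant cells. Haemoglobin and other erythroid genes reached 0.5% in 2 cells of each library and 93.7% of UMIs in 1 control cell. In all, 15 control and 17 mutant muscle cells were at 0.5% for at least 1 list of another cell type. None of the 7 macrophage genes passed 3 UMIs in either library. The part of these cells in the results was not tested as such, and values without them are among the alternatives.

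A group of 6 mutant barcodes stood apart. They held 4.89% to 24.6% of their UMIs in 59 sarcomere genes outside the rule, while the highest of the other 83 mutant muscle cells held 1.43% and the highest control muscle cell 1.18%. No kept control cell reached 2%, and barcodes that failed a filter were not measured for this. They were 6 of 10708 mutant and 0 of 9722 control kept cells, and a count of 0 allows up to 0.0309% in control. They were small, with 2636 to 11047 UMIs. Malat1, a nuclear RNA found in nearly every nucleus, gave 0 or 1 UMI in each. Per 10000 UMIs the 6 barcodes had a median of 3.00 and a highest value of 3.79, against a median of 38.1 over the control muscle cells and 51.6 over the other mutant ones. Another 12 mutant and 6 control muscle cells were under 10 Malat1 UMIs per 10000, with sarcomere shares of 0.104% to 1.05% and of 0.0467% to 0.379%. The 6 barcodes had no UMI of Mymx or Pax7 and 0 to 9 of Myog.

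**Figure D3:**
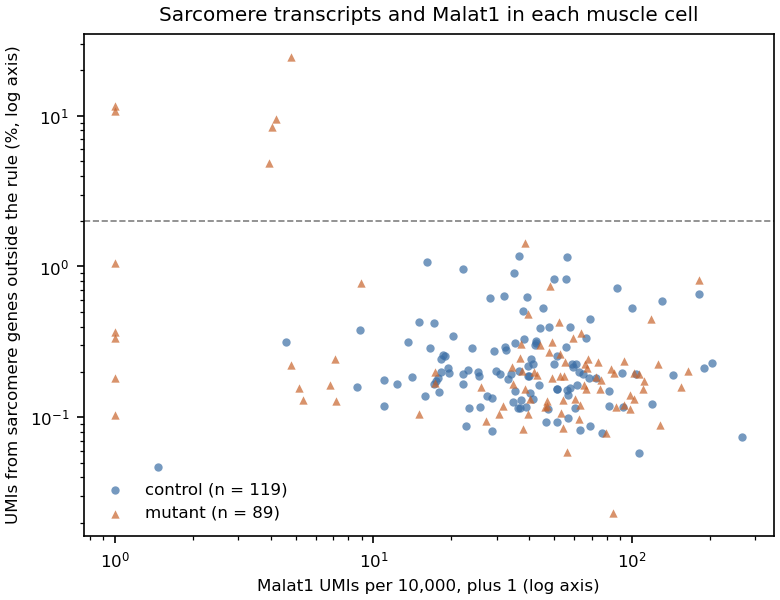
Share of UMIs from sarcomere genes outside the rule (y axis, %, log scale) against Malat1 UMIs per 10000 plus 1 (x axis, log scale) in each control (circles, n = 119) and mutant (triangles, n = 89) muscle cell. The 6 mutant barcodes above the dashed line at 2% lie between 4.89% and 24.6% at 0 to 3.79 Malat1 UMIs per 10000.

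The contents of the 6 differed. Of them, 5 held Acta1 at 22 to 244 UMIs and Mylpf, the regulatory light chain of fast myosin, at 16 to 368. Among these, 4 had mitochondrial shares of 0.0642% to 0.225%. The remaining barcode had 2636 UMIs with 400 of Myh3, 58 of Myh7 (slow myosin), 51 of Myh8 (perinatal myosin), 145 of Ttn and 23 of Des, but none of Acta1. Its mitochondrial share was 8.19%. Together the 6 held 95.8% of the Acta1 UMIs of the mutant muscle cells, 15.8% of Ttn and 0.933% of Myog. The genotype values of the sarcomere genes and lists below are therefore given with and without them.

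Muscle cells made up a smaller share of the mutant library. They were 1.22% (1.02 to 1.46) of control and 0.831% (0.668 to 1.02) of mutant kept cells, a ratio of 0.679 (0.510 to 0.901). Among kept cells with under 0.3% of UMIs from the neural retina list the shares were 2.51% and 2.21%, a ratio of 0.882 (0.647 to 1.20). Among muscle lineage cells, that is muscle cells and progenitors together, they were 67.6% and 56.7%, a ratio of 0.838 (0.630 to 1.11). The progenitors themselves were 0.586% of control and 0.635% of mutant kept cells, a ratio of 1.08 (0.751 to 1.57). The cells at Myog of 5 or more were 0.473% and 0.252%, a ratio of 0.533 (0.319 to 0.875). Differences between dissections and between genotypes cannot be told apart with single libraries.

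Of 7569 genes with 50 or more UMIs, 102 (1.35%) were at least 2-fold higher in mutant muscle cells and 42 (0.555%) at least 2-fold lower, with no replicate to set these against. In 62 of the 102 higher genes, 5 cells held at least 50% of the mutant UMIs, and 11 of the 102 were sarcomere or rule genes. Without the 6 barcodes, 90 of 7548 genes (1.19%) were higher and 45 (0.596%) lower. Markers of other cell types differed as well. The mesenchyme list had a median log2 ratio of 0.56, with 3 of 10 genes at least 2-fold higher, against -0.40 in all other kept cells, and the median was -0.44 in the cells with Xist described at the end and -0.26 without the barcodes of highest Scrublet score, a measure of doublets. With 4 or more of the 5 markers required, the medians of the mesenchyme and neural retina lists were 1.45 and 1.72, against 0.56 and 0.46 in all muscle cells. All 3 measured retinal pigment epithelium genes were at least 2-fold lower, with Pmel at 126 and 11 UMIs, Dct at 59 and 2 and Ttr at 73 and 0, and they were detected in 8.40%, 3.36% and 1.68% of the control muscle cells. Their part in the genotype values was not tested.

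Several sarcomere genes turned direction with the 6 barcodes. Of 7 thick filament genes 2 reached 50 UMIs only through these barcodes, among them Myh7 with 1 UMI in control and 59 in mutant, so the median log2 ratio of 1.95 over the 7 is a description. Without the 6 barcodes 0 of 5 were at least 2-fold higher and 1 was lower, with a median of -0.30. Acta1 had 66 UMIs in control and 431 in mutant muscle cells, and 18 in the mutant without the 6 barcodes, a ratio of 0.403 (0.225 to 0.687). Of genes outside the rule, Mylpf had 283 and 747 UMIs, and 156 without them, a ratio of 0.815 (0.666 to 0.994). Myh3 had 80 and 451 UMIs, and 25 without them, a ratio of 0.462 (0.282 to 0.732). Thin filament genes had a median of 0.26 over 14 genes with and -0.19 over 11 without the barcodes. Ttn had a log2 ratio of 0.18 with and -0.049 without them, Actc1 one of -0.080 and -0.19, Des one of -0.23 and -0.50, and Tnnt1 one of -0.25 and -0.45. Acta1, Ttn, Actc1, Des and Tnnt1 are genes of the rule, so their ratios are descriptions, and as a mean over cells Actc1, Des and Tnnt1 turned to 0.13, 0.64 and 0.34.

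**Figure D4:**
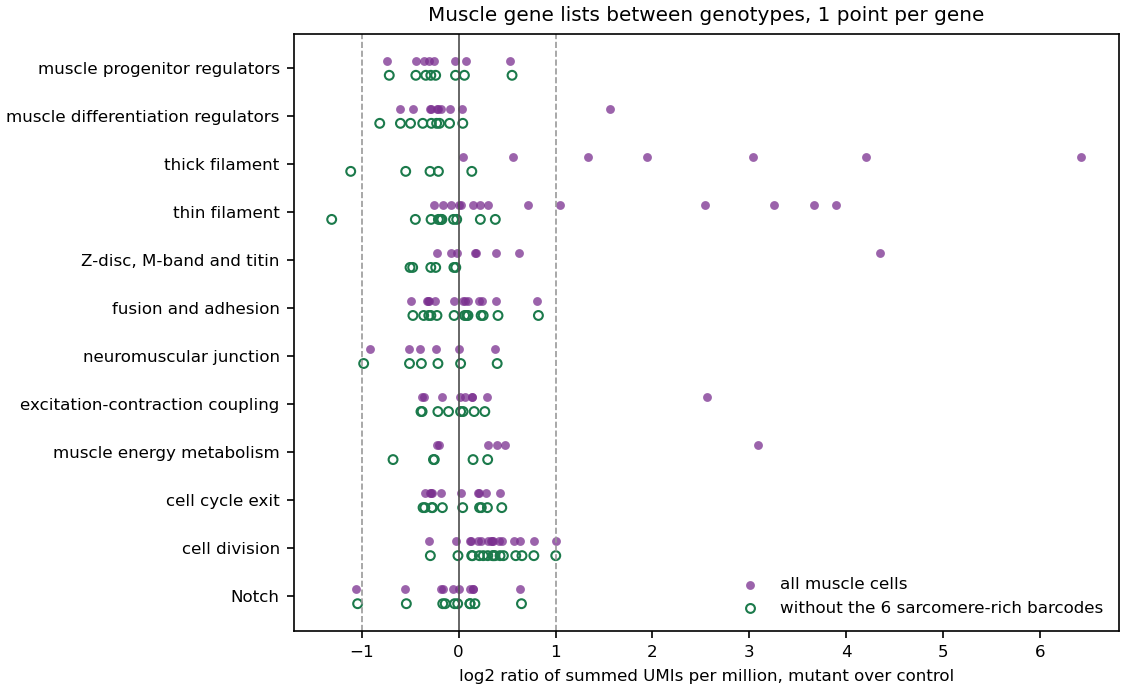
Log2 ratio of CPM, mutant over control (x axis), for each gene with 50 or more UMIs in 12 muscle lists (y axis), with all muscle cells (filled) and without the 6 sarcomere-rich barcodes (open). Dashed lines mark 2-fold. The thick filament gene Myh7, with 1 UMI in control and 59 in mutant, lies farthest to the right with the barcodes, and no thick filament gene of 50 or more UMIs passes 2-fold higher without them.

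Some genes that went with Myog were lower in mutant muscle cells on counting error alone, and for others the interval of the ratio held 1. Myog is a gene of the rule, so its ratio is a description. It was at 1136 CPM in control and 746 in mutant, a ratio of 0.657 (0.618 to 0.698), and Mymx at 290 and 206, a ratio of 0.711 (0.631 to 0.801). Chrna1 had a ratio of 0.701 (0.547 to 0.894), and Mymk one of 0.804 (0.633 to 1.02), whose interval holds 1. In the cells with Xist described at the end, the log2 ratio was -0.43 (-1.02 to 0.11) for Chrna1 and -0.89 (-1.58 to -0.26) for Mymk. Without muscle cells holding another type's UMIs, that of Mymk was -0.67 (-1.07 to -0.28). S100a16 had a ratio of 0.554 (0.457 to 0.667), Cdkn1a one of 0.813 (0.670 to 0.983) and Cdkn1c one of 0.881 (0.864 to 0.898), while in all other kept cells the ratios were 0.986, 1.52 and 0.722. Myod1, also a gene of the rule, was at 237 and 242, a ratio of 1.02 (0.907 to 1.15). Chrng had a ratio of 1.30 (0.832 to 2.03), Tnnt2 one of 1.11 (0.986 to 1.25), or 0.986 (0.871 to 1.12) without the 6 barcodes, and Rb1 one of 1.02 (0.751 to 1.37), and all of these intervals hold 1. With 4 or more of the 5 markers required, the log2 ratio was -0.22 (-0.41 to -0.043) for Myod1 and -0.20 (-0.38 to -0.022) for Tnnt2. In the cells with Xist, that of Rb1 was 0.67 (0.093 to 1.22). Over the 10 measured genes of the differentiation regulator list the median log2 ratio was -0.22, with 1 gene at least 2-fold higher and 0 lower, and without the 6 barcodes it was -0.28 over 9 genes, with 0 higher and 0 lower. Over the 12 alternatives the log2 ratio of Myog stayed between -0.97 and -0.49 and that of Mymx between -0.85 and -0.40. Of progenitor genes, Pax7 was at 39.2 and 56.7 CPM, a ratio of 1.45 (1.11 to 1.89), and Myf5 at 86.2 and 63.6, a ratio of 0.738 (0.592 to 0.916), so that they went opposite ways. With 4 or more of the 5 markers required, the log2 ratio of Myf5 turned to 0.079.

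The named genes that were lower in mutant muscle cells, beyond Myog, included Id1 and Id3, which block bHLH factors. Id1 was at 134 CPM in control and 68.1 in mutant, a ratio of 0.509 (0.416 to 0.619), against 1.20 (1.17 to 1.22) in all other kept cells. Id3 was at 328 and 192, a ratio of 0.587 (0.520 to 0.661), against 0.976 (0.965 to 0.987). Acta2 had a ratio of 0.611 (0.564 to 0.662) against 1.22 elsewhere, and Zfp36l1, an RNA decay factor, one of 0.656 (0.562 to 0.765) against 1.03. Gm26669, a lincRNA, had 58 and 13 UMIs, and it overlaps Zfp36l1 on the opposite strand. Hacd2, an enzyme of fatty acid elongation, had a ratio of 0.466 (0.278 to 0.754) against 1.06. Nfkbia, the NF-kappaB inhibitor, had one of 0.546 (0.393 to 0.749) against 0.779. Rapsn, with 140 and 51 UMIs, had one of 0.531 (0.378 to 0.737) and one of 0.589 in all other kept cells, so it was lower there too, as were Nfkbia and Gm6710, the latter at 0.424 and 0.405. Over the alternatives Hacd2 and Gm6710 reached log2 ratios of -0.92 and -0.71, under 2-fold. In the cells with Xist described at the end their intervals held 0, at -1.09 (-2.46 to 0.022) and -0.71 (-2.09 to 0.43).

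The named genes that were higher included histone genes and Rrm2. The histone genes Hist1h4d, Hist1h4h and Hist3h2a had ratios of 2.96 (2.17 to 4.09), 2.85 (1.97 to 4.18) and 2.63 (1.76 to 3.97), against 1.57, 1.24 and 1.08 in all other kept cells. With 4 or more of the 5 markers required, the log2 ratio of Hist1h4h was 0.87 (0.18 to 1.59). Without muscle cells holding another type's UMIs, that of Hist3h2a was 0.71 (-0.052 to 1.47), and without the barcodes of highest Scrublet score it was 0.72 (-0.036 to 1.47). The neural retina list had a median log2 ratio of 0.46 in the muscle cells, with 3 of 14 measured genes at least 2-fold higher, and 0.32 in all other kept cells. That median was -0.40 without muscle cells holding another type's UMIs, 1.04 without the barcodes of highest Scrublet score and 0.99 in the cells with Xist, and its part in these ratios was otherwise not tested. These histone genes belong to families of near-identical genes, so their counts are uncertain. Rrm2, a subunit of ribonucleotide reductase, had a ratio of 2.01 (1.64 to 2.47) against 1.11, and its log2 ratio lay between 0.81 and 1.51 over the alternatives, on both sides of 2-fold. Of 24 measured genes with a histone symbol, chosen after their values were seen, 13 were at least 2-fold higher and none lower, beside 1.35% and 0.555% of all genes, which is a description of a set picked for this pattern, with a median log2 ratio of 1.07 against 0.36 in all other kept cells. In the cell division list 1 of 16 genes, Rrm2, passed 2-fold, and the median was 0.34 beside 0.01 over all genes and 0.16 for the same list in all other kept cells. Mki67 had a ratio of 1.33 (1.16 to 1.53) and Top2a, a topoisomerase of dividing cells, one of 1.49 (1.33 to 1.66), while Mki67 was detected in 41.2% and 44.9% of the cells. Without the barcodes of highest Scrublet score the median of the list was 0.72, with Top2a at a log2 ratio of 1.05 and Mki67 at 0.91, and in the cells with Xist it was 0.61, with 1.01 and 0.99.

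Other named higher genes were Camk2n1, an inhibitor of CaM kinase II, with a ratio of 2.83 (2.01 to 4.04) against 1.11 elsewhere, Crip1, a LIM domain protein, with 2.23 (1.71 to 2.91) against 1.40, and Rassf4 with 2.67 (1.68 to 4.32) against 1.18. Without muscle cells holding another type's UMIs, the log2 ratio of Rassf4 was 0.59 (-0.25 to 1.42), an interval that holds 0. As a mean over cells that of Crip1 was 0.74. Borcs5 had only 15 and 35 UMIs. Car3, carbonic anhydrase 3 of muscle and fat, had 1.85 (1.65 to 2.09) and 2.22 in all other kept cells. Gm47283, annotated on chromosome Y, had 182 UMIs in control muscle cells and a ratio of 2.42 (2.01 to 2.93), with 1.98 elsewhere.

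**Figure D5:**
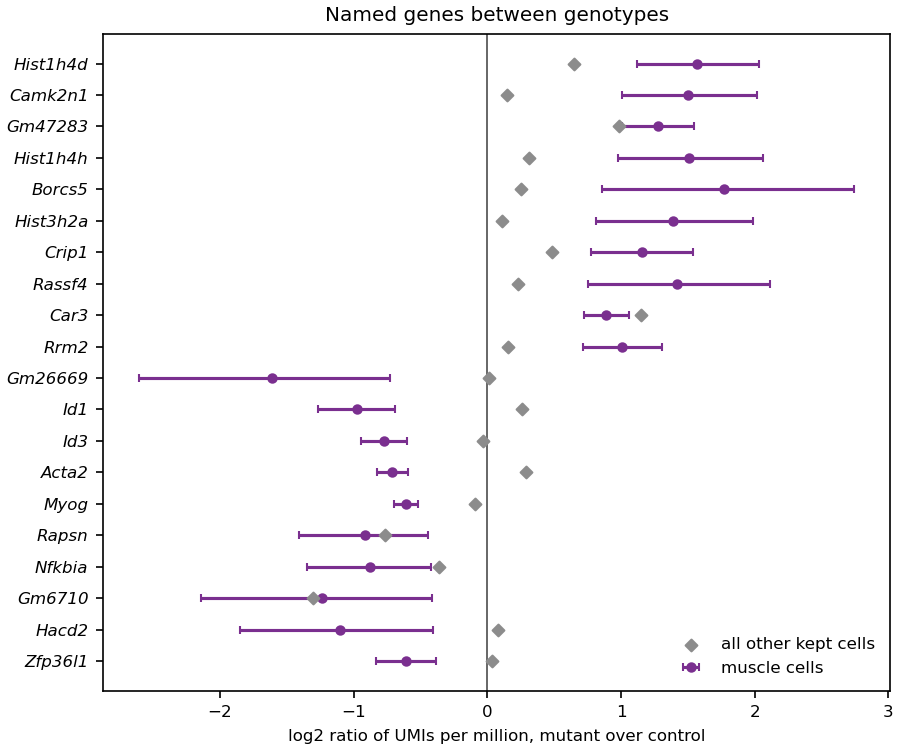
Log2 ratio of CPM, mutant over control (x axis), of the 20 named genes (y axis) in muscle cells (circles with exact 95% counting intervals) and in all other kept cells (diamonds). Id1, Id3, Acta2 and Myog lie below 0 in muscle cells at -0.98, -0.77, -0.71 and -0.61. Rapsn, Gm6710 and Nfkbia lie below 0 in both, as do Id3 and Myog, at -0.035 and -0.090 in all other kept cells.

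The libraries differed in the sex of their cells. Xist, which female cells express, was detected in 117 of 119 control and 35 of 89 mutant muscle cells. In the 117 control and 24 mutant muscle cells that held Xist but no UMI of the Y-linked genes Ddx3y, Eif2s3y, Kdm5d and Uty, Gm47283 not being among these, Myog had a log2 ratio of -0.97, Id1 of -1.03 and Rrm2 of 1.51, in the same directions as over all cells. In these cells 140 genes were at least 2-fold higher and 189 lower, against 102 and 42 over all muscle cells. The number of genes compared in these fewer cells was not recorded, so the counts have no share of all genes beside them. The thick filament, thin filament and mesenchyme lists and the genes Acta1, Myh3, Myl1, Mylpf and Tnni1 turned lower. None of the 6 sarcomere-rich barcodes was among these cells. All of these lists and genes but the mesenchyme list also turned lower without those barcodes. The part of cell sex in this was not tested.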

How the data were processed

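One 10x Genomics 3′ library was made for each genotype from 3 pooled e15.5 eye cups dissociated with papain. Raw counts of UMIs for each gene and barcode, not normalized, are what the authors deposited, and the submitters' processing notes name Cell Ranger 7.1.0, Seurat 4.1.1 and mm10. The headers of the count matrices name an earlier version of the matrix software, and whether intronic reads were counted is not given in the sources used here. Barcodes with 200 genes, 2000 UMIs and at most 15% mitochondrial UMIs were kept, and muscle cells were chosen by the gene rule given above. The members and the gene lists were chosen with earlier results of these data known. Counts were summed over the cells of a library and scaled to CPM with numpy 2.4.6, scipy 1.17.1 and pandas 2.3.3. With 1 library per genotype there was no test, and a gene was counted as higher or lower at a ratio of 2 or more. Genes with 50 or more UMIs were compared, and ratio intervals came from exact conditional binomial limits. These were checked on simulated counts that held counting error only, so spread between cells or libraries was not covered. The named genes were those of the rule, listed muscle genes with 50 UMIs as examples, and the 10 genes each way whose interval lay farthest from no change with under 50% of UMIs in the 5 richest cells. For progenitors they were the 10 genes each way outside the lists with the largest smaller ratio of both libraries. Of 31053 gene IDs, 30934 were found in GENCODE vM21 for positions. Doublets were scored with Scrublet in scanpy 1.11.5, whose threshold called 366 of 11942 control and 0 of 13018 mutant barcodes and so was not used to remove cells. Aldoa was left out because 2 IDs share the symbol. The study's upper limit on counts per cell lies at the lower limit of this rule and was not applied. Other time points were not analysed here. Some listed genes are not reported here.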

Additional observations from a re-analysis of the deposited data

Results flagged for a closer look

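A UMI of Ddx3y, Eif2s3y, Kdm5d or Uty, Y-linked genes outside the genes compared, was found in 61.8% of mutant muscle cells (55 of 89) and in 0 of 119 control ones, where shares up to 2.52% remain possible. The gene Gm47283, also annotated on chromosome Y, was not among them and had 182 UMIs in control muscle cells. Of the mutant muscle cells, 24 held Xist without a UMI of the 4 genes, 44 such a UMI without Xist, 11 both and 10 neither.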

How the results depend on the processing

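Intervals cover counting error within single libraries, and the depth of 89 to 119 cells limits genes under 50 UMIs. No paired analysis was possible because each genotype had 1 library and no test was made. Of 986 values recomputed under other settings, 818 were the same, 139 moved and 29 reversed. Of the settings, 3 were added after seeing the data. The same means within the interval of the main value, within its quartiles for sarcomere shares, or within a set fold for numbers of genes. Reversed means the other direction where the main interval did not hold no change. The cause of the changes was not tested. The median log2 ratio of thick filament genes was 0.76 at up to 5% mitochondrial UMIs, 0.092 at 4000 UMIs or more, 1.02 with 4 markers, 0.60 with 2 UMIs for a marker, 3.40 as a mean over cells, 1.64 at a gene minimum of 20 UMIs, 2.20 without cells holding another type's UMIs, -1.15 in cells that held Xist but no UMI of the 4 Y-linked genes (the Xist cells) and -0.30 without the 6 sarcomere-rich barcodes. That of thin filament genes was 0.87 as a mean over cells, -0.43 in the Xist cells and -0.19 without the 6 barcodes. The number of higher genes was 164 as a mean over cells and 290 at the minimum of 20, and that of lower genes was 92 and 161, with 27 at 2 UMIs for a marker and 189 in the Xist cells. The number of genes compared was not recorded for each setting, so these counts have no share beside them. The minimum of 20 also admits more genes. The median sarcomere share was 0.35% in control and 0.375% in mutant cells thinned to 2000 UMIs. Ttn turned to -0.031 at 5% mitochondrial UMIs, -0.051 at 4000 UMIs, -0.16 with 4 markers, -0.015 with 2 UMIs for a marker and -0.049 without the 6 barcodes. Myh3 turned to -0.75, -0.35, -0.11 and -1.11 at 4000 UMIs, with 4 markers, with 2 UMIs and without the 6 barcodes, and Myf5 to 0.079 with 4 markers. In the Xist cells, which hold none of the 6 barcodes, Acta1 was -1.54, Myh3 -2.39, Myl1 -1.25, Mylpf -1.15, Tnni1 -0.61 and the mesenchyme list -0.44. As a mean over cells Actc1 was 0.13, Des 0.64 and Tnnt1 0.34. Without the 6 barcodes Acta1 was -1.31, Myl1 -0.55, Mylpf -0.30 and Tnni1 -0.17. The neural retina list was -0.40 without cells holding another type's UMIs, but 1.72 with 4 markers, 1.04 without barcodes of the highest Scrublet score and 0.99 in the Xist cells. The mesenchyme list was -0.26 without barcodes of the highest Scrublet score, but 1.45 with 4 markers. The planned removal of Scrublet's called doublets was not run, since none was called in the mutant.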
